A study of Mus musculus with 12 samples.

Results

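The genes described are 10 solute carriers of the leptomeninges and the brain barriers, Slc6a13, Slc6a12, Slc6a20a, Slc6a20b, Slc22a6, Slc22a8, Slc22a3, Slc13a4, Slc7a11 and Slc47a1, out of 27179 gene IDs in the count table. They were taken by symbol from a fixed list of transporters, and that list was selected on the measured difference between the genotypes over all 12 mice. Their genotype values, counts past a threshold included, are therefore given as a description that supports nothing, while the tests of sex, which the choice did not use, are given in full. The data are RNA sequencing of the hippocampus from 12 mice aged 3 months. The 6 Nell-1+/6R mice carry 1 copy of 6R, a Nell1 allele made by ENU mutagenesis that has lost its function, and the 6 WT littermates carry none, with 3 females and 3 males in each genotype. The mutation is present in every cell and from conception, and mice with 2 copies die at birth, so the comparison is between lifelong partial loss and none, in whole hippocampus in which cell types were not separated. The question was which transcripts differ in the hippocampus when NELL-1, a secreted protein first studied in bone formation, is reduced.

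Solute carriers are membrane proteins that move small molecules across cell membranes, most of them by coupling the movement to an ion gradient or by exchanging one solute for another. The endothelium of the brain's vessels separates its tissue from blood, the epithelium of the choroid plexus and the arachnoid barrier layer separate blood and dura from the cerebrospinal fluid, and the leptomeninges (pia and arachnoid) dip with the vessels to the surface of the hippocampus. Fibroblasts and barrier cells of the leptomeninges are known for carriers of GABA, betaine, proline, sulfate and organic ions, which clear or supply these solutes at the border of the tissue.

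The counts of a mouse summed to between 10834905 and 16016317. Levels are given in CPM, counts scaled to a common library total, after scaling with TMM factors, which correct for differences in composition between libraries. Nell1 itself lay between 30.6 and 44.0 CPM in WT and between 17.2 and 20.8 CPM in Nell-1+/6R, and Xist and Eif2s3y separated every female from every male, as the labels say. Each of the 10 genes passed the filter on low values (2 or more mice reaching a CPM of 0.2), as did 17937 genes in all. Per kilobase of exon, the mean WT level was 5.05 CPM for Slc13a4, 4.73 for Slc22a8, 3.43 for Slc6a13, 2.03 for Slc6a20a, 1.99 for Slc7a11, 1.72 for Slc22a6, 0.782 for Slc6a12, 0.651 for Slc47a1, 0.223 for Slc22a3 and 0.0702 for Slc6a20b. Of the neighbours in this order, only Slc47a1 and Slc22a3, and Slc22a3 and Slc6a20b, had ranges over the 6 WT mice that did not overlap. Slc13a4 was above Slc22a8 in only 3 of the 6 WT mice and Slc6a20a above Slc7a11 in 3, so these places in the order do not hold beyond the spread between mice.

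All 10 carriers had a lower fitted level in the Nell-1+/6R mice than in WT. The difference was largest for Slc22a6, which had 0.424 times the WT mean, and smallest for Slc22a8, which had 0.890 times the WT mean. The median log2 fold change of the 10 was -1.02, beside -0.00 over all genes tested, of which 50.3% were below 0. In edgeR's quasi-likelihood fit, 5 of them (Slc6a13, Slc6a20a, Slc6a20b, Slc22a6 and Slc22a3) had an unadjusted p under 0.05 with a fold change above 1.5, all lower, where 1.07% of all genes tested were past both thresholds in that direction. Since the choice of the genes used this contrast, nothing is read from that count. At an unadjusted p under 0.05 with no fold threshold there were 6 in edgeR, where 3.26% of all genes were in either direction, and 0 of the 10 had an adjusted p under 0.05, which 0.0390% of all genes did. The RNA is from whole tissue, so fewer cells of a type and less RNA per cell cannot be told apart. Levels also varied widely between mice of the same kind: the biological coefficient of variation fitted by edgeR had a median of 0.432 over the 10 genes and of 0.138 over all genes.

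**Figure D1:**
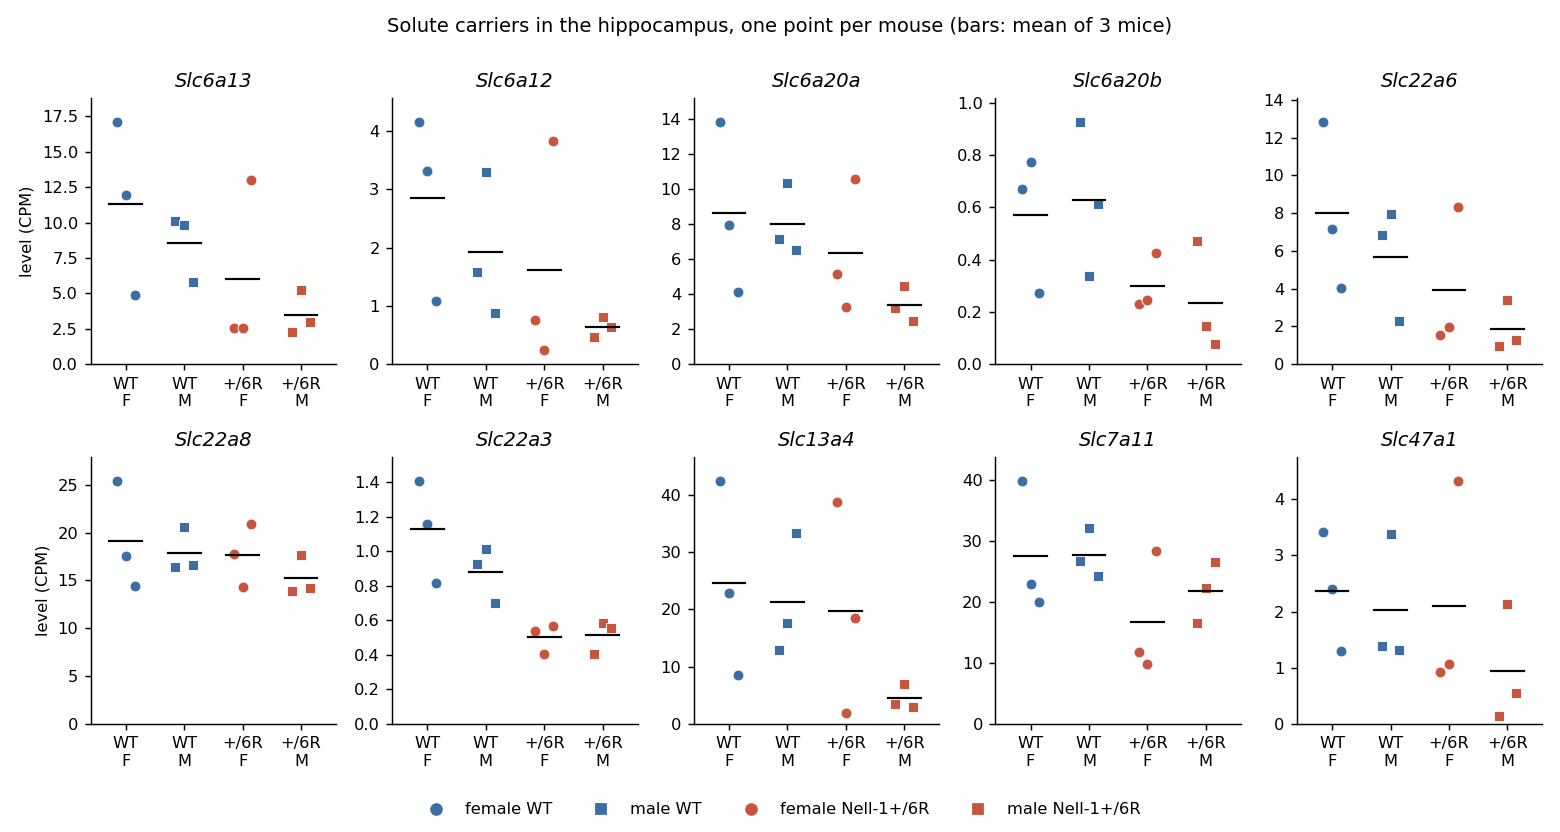
Level of each carrier in CPM (vertical axes, linear, from 0) in each of the 12 mice, by genotype and sex; points are mice and bars are means of 3 mice. In Slc22a3 the points of the genotypes do not overlap, while in the other 9 genes the genotypes overlap, and in Slc6a13, Slc6a12, Slc6a20a, Slc22a6, Slc47a1 and Slc13a4 a female Nell-1+/6R mouse (replicate 3, and in Slc13a4 replicate 1) lies well above the other 5.

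Slc6a13 and Slc6a12 encode the GABA and taurine carrier GAT2 and the betaine and GABA carrier BGT1. They lie in tandem on the plus strand of chromosome 6 (GRCm38), Slc6a13 at chr6:121300288-121337721 and Slc6a12 at chr6:121342574-121365773, 4852 bases apart. Their promoters, 250 bases before to 50 after the annotated start in RefSeq GRCm38.p6, at chr6:121300038-121300337 and chr6:121342324-121342623, are shown because these neighbours varied together between mice but at different levels, with GGGCGG (GC box) and TGACNNNGC (antioxidant response element core) matches on either strand in capitals.
Slc6a13: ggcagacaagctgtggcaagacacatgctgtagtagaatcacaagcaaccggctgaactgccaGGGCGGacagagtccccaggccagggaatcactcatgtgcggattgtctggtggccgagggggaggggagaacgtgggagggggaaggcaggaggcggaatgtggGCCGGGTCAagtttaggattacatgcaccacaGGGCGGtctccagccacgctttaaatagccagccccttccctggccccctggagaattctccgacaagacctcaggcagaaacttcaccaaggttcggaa
Slc6a12: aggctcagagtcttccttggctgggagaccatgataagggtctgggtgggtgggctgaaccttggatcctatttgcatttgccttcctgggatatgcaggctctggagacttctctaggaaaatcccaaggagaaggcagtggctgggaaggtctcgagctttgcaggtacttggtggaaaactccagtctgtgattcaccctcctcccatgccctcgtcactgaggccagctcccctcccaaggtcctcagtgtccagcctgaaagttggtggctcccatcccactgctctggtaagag
The first window held 2 GC boxes and 1 match to the antioxidant response element core, and the second held none of the 5 motifs searched. They had 11 and 2 CpG dinucleotides.

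Slc6a13 ranged from 4.91 to 17.1 CPM in the WT mice, with a median of 9.96. In the Nell-1+/6R mice it ranged from 2.30 to 13.02 CPM, with a median of 2.77. Of the 6 Nell-1+/6R mice, 5 were below the WT median and 4 were below the lowest WT mouse, while female Nell-1+/6R replicate 3 was above 5 of the 6 WT mice. The WT mean was 9.95 ± 4.43 CPM and the Nell-1+/6R mean 4.77 ± 4.19 CPM (SD over 6 mice), for a log2 fold change of -1.08 with a standard error of 0.41. Slc6a12 ranged from 0.879 to 4.16 CPM (median 2.44) in WT and from 0.244 to 3.82 CPM (median 0.700) in Nell-1+/6R. The same female Nell-1+/6R mouse held the highest value of its genotype, and the other 5 were all below the lowest WT mouse. The log2 fold change was -1.12 with a standard error of 0.53, resting on 193 WT counts and 93 Nell-1+/6R counts. The ratio of Slc6a13 to Slc6a12 counts was 2.97 to 6.60 in WT mice and 3.30 to 10.3 in Nell-1+/6R mice, ranges that overlap.

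Slc6a20a encodes SIT1, a sodium-coupled carrier of proline and other imino acids, and Slc6a20b is its tandem relative. Both are on the minus strand of chromosome 9, Slc6a20a at chr9:123636907-123678832 and Slc6a20b at chr9:123593823-123632538, 4368 bases apart. Of the 4128 stretches of 50 bases in the Slc6a20a transcripts, 631 (15.3%) also occur in Slc6a20b, so reads of the read length used, 50 bases, cannot be placed on one of the pair within them. Slc6a20b also shares 1800 exon bases with Sacm1l on the opposite strand, and Slc6a20a shares 563 with the antisense gene Gm17120. The sources used here do not give the strand setting of the counting, so both counts are uncertain to that degree. The promoter windows at chr9:123678783-123679082 and chr9:123632489-123632788 are shown because the pair differed in level, with the GC box in capitals.
Slc6a20a: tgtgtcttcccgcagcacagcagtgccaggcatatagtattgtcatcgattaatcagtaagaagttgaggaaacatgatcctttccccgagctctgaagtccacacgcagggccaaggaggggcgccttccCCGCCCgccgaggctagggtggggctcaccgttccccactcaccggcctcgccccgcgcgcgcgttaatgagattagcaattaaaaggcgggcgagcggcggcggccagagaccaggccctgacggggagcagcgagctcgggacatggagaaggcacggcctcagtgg
Slc6a20b: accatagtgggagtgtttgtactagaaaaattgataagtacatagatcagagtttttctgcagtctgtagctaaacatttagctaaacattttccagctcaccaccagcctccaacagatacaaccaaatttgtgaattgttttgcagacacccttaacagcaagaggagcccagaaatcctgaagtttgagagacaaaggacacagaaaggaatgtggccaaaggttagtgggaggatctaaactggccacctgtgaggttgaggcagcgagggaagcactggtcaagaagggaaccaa
The Slc6a20a window had 25 CpG dinucleotides and a GC content of 62.3%, and the Slc6a20b window had 1 CpG and 44.0%.

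Slc6a20a ranged from 4.09 to 13.8 CPM in WT mice (median 7.55) and from 2.45 to 10.5 CPM in Nell-1+/6R mice (median 3.87). Of the Nell-1+/6R mice, 3 were below the lowest WT mouse, and female Nell-1+/6R replicate 3 was again far above the rest. The WT mean was 8.30 ± 3.37 CPM, that of the Nell-1+/6R mice 4.84 ± 2.96 CPM (SD over 6 mice), and the log2 fold change was -0.82 with a standard error of 0.33. Slc6a20b was near the limit of detection, with 1 to 11 counts in a mouse. It lay between 0.273 and 0.928 CPM in WT (median 0.644) and between 0.0792 and 0.473 CPM in Nell-1+/6R (median 0.237), and 4 WT mice were above every Nell-1+/6R mouse. Its log2 fold change was -1.10 with a standard error of 0.43, resting on 46 counts in all WT and 22 in all Nell-1+/6R mice. The ratio of Slc6a20a to Slc6a20b counts ran from 7.70 to 30.5 in WT and from 6.71 to 31.0 in Nell-1+/6R mice, and the lowest Slc6a20b count behind it was 1.

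Slc22a6 and Slc22a8 encode the organic anion transporters OAT1 and OAT3, which exchange metabolites, drugs and toxins for dicarboxylates. They lie in tandem on the plus strand of chromosome 19, Slc22a8 at chr19:8591254-8611835 and Slc22a6 at chr19:8617996-8628299, 6160 bases apart, and share no stretch of 50 bases with each other. Their promoter windows, chr19:8617746-8618045 for Slc22a6 and chr19:8592932-8593231 for Slc22a8, are shown because these neighbours differed most in their genotype values, with matches to the CCAAT box on either strand in capitals. The window of Slc22a8 surrounds the RefSeq start, which lies 1928 bases inside the gene as the GENCODE M21 annotation draws it.
Slc22a6: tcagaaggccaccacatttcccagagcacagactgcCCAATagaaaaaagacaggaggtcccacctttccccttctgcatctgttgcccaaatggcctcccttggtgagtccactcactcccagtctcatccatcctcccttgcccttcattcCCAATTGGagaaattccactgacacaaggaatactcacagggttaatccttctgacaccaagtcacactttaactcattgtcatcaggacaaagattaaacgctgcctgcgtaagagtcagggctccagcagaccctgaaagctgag
Slc22a8: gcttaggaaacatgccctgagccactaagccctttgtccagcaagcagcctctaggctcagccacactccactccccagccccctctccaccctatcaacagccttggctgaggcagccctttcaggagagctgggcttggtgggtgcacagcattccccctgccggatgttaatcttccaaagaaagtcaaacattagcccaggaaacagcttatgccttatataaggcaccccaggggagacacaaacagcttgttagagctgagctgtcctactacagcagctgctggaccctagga
The Slc22a6 window held 3 CCAAT boxes, 2 of which overlap on opposite strands, and the Slc22a8 window held none of the motifs searched.

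Slc22a6 ranged from 2.28 to 12.8 CPM in WT mice (median 7.02) and from 0.947 to 8.35 CPM in Nell-1+/6R mice (median 1.74). Of the Nell-1+/6R mice, 4 were below the lowest WT mouse, and female Nell-1+/6R replicate 3 was above 5 of the 6 WT mice. Mean levels were 6.86 ± 3.63 CPM (WT) and 2.91 ± 2.80 CPM (Nell-1+/6R, SD over 6 mice), and the log2 fold change was -1.28 with a standard error of 0.47. Slc22a8, by contrast, was among the steadiest of the 10 genes. Its range was 14.4 to 25.4 CPM in WT (median 17.1) and 13.9 to 20.9 CPM in Nell-1+/6R (median 16.0), with a log2 fold change of -0.17 and a standard error of 0.14. The count ratio of Slc22a8 to Slc22a6 had a median of 2.52 in WT, with a range of 1.98 to 7.27, and a median of 9.26 in Nell-1+/6R, with a range of 2.50 to 14.6. The ranges of the ratio overlapped between the genotypes.

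Slc22a3 encodes OCT3, a carrier of organic cations that also takes up monoamine transmitters at low affinity, and is at chr17:12419972-12507704 on the minus strand. It was scarce, with 5 to 23 counts in a mouse, yet was the only one of the 10 genes in which the genotypes did not overlap. The WT mice lay between 0.703 and 1.41 CPM (median 0.971) and the Nell-1+/6R mice between 0.406 and 0.587 CPM (median 0.545). A complete separation of this kind, with the Nell-1+/6R mice lower, occurred in 0.100% of all genes tested (18 genes), a share from which nothing is read here because the contrast was used in the choice. The WT mean was 1.00 ± 0.251 CPM and the Nell-1+/6R mean 0.510 ± 0.0815 CPM (SD over 6 mice), from 80 and 41 counts, and the log2 fold change was -0.97 with a standard error of 0.24. The gene shares 420 exon bases with Plg on the opposite strand, so its counts carry the same uncertainty on strand. Slc47a1 (chr11:61343400-61378842, minus strand) encodes MATE1, which extrudes organic cations in exchange for protons. Its range was 1.30 to 3.42 CPM in WT (median 1.89) and 0.135 to 4.32 CPM in Nell-1+/6R (median 0.990). Of the Nell-1+/6R mice, 4 lay below all WT mice, and female Nell-1+/6R replicate 3 lay above all of them. The log2 fold change was -0.58 with a standard error of 0.52, a difference close to its own error.

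Slc13a4 encodes the sodium-sulfate cotransporter NaS2, which is known from the meninges and the choroid plexus. It is at chr6:35267953-35308126 on the minus strand, and its promoter window, chr6:35308077-35308376, is shown because it held the most motif matches of the 9 windows, with CCAAT and GGGCGG on either strand in capitals.
Slc13a4: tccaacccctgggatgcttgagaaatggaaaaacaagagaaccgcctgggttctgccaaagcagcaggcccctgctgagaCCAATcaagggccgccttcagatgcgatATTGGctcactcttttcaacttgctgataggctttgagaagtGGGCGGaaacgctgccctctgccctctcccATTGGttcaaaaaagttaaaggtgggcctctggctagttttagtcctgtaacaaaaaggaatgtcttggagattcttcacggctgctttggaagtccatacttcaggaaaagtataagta
It held 3 CCAAT boxes and 1 GC box. Slc13a4 had the highest fitted biological coefficient of variation of the 10 carriers, 0.673. In WT mice it ranged from 8.46 to 42.3 CPM (median 20.2), and in Nell-1+/6R mice from 1.96 to 38.6 CPM (median 5.18), a spread of 19.8-fold between the highest and lowest Nell-1+/6R mouse. The 3 highest mice were female WT replicate 1 at 42.3 CPM, female Nell-1+/6R replicate 1 at 38.6 CPM and male WT replicate 3 at 33.2 CPM. The log2 fold change was -1.18 with a standard error of 0.59. Female means were 24.5 ± 17.0 CPM (WT) and 19.7 ± 18.4 CPM (Nell-1+/6R), and male means 21.2 ± 10.7 CPM (WT) and 4.43 ± 2.16 CPM (Nell-1+/6R), each with the SD over 3 mice. All 3 male Nell-1+/6R mice were below the lowest male WT mouse, while the females overlapped over nearly their whole range.

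Slc7a11 encodes xCT, the light chain of the exchanger that takes up cystine and releases glutamate, which is found in meningeal cells and astrocytes. It is at chr3:50364936-50499087 on the minus strand and had the highest mean CPM of the 10 over the 12 mice. It ranged from 20.1 to 39.8 CPM in WT (median 25.5) and from 9.78 to 28.4 CPM in Nell-1+/6R (median 19.4), and 3 Nell-1+/6R mice were below the lowest WT mouse. WT mice averaged 27.7 ± 7.20 CPM and Nell-1+/6R mice 19.2 ± 7.74 CPM (SD over 6 mice), and the log2 fold change was -0.54 with a standard error of 0.25, under the 1.5-fold threshold.

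**Figure D2:**
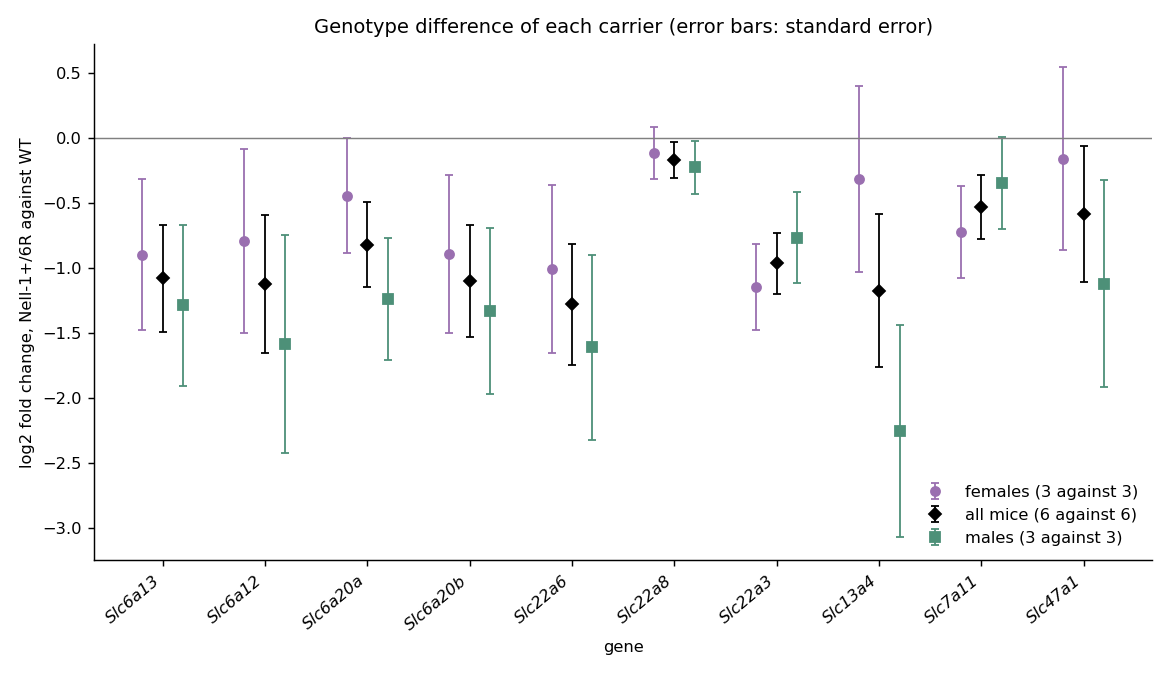
Log2 fold change of each carrier, Nell-1+/6R against WT (vertical axis), over all 12 mice and in each sex alone, with standard errors as bars. All 30 values are below 0, and the female and male values of Slc13a4, -0.32 and -2.26, are the farthest apart.

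Promoter windows of 9 of the 10 genes were found in the RefSeq table by symbol, and where a gene has several starts there (3 for Slc6a13 and 5 for Slc6a12) the window nearest the start of the gene was taken. The window of Slc7a11 lies 55474 bases inside the gene as GENCODE M21 draws it. In all, 5 motifs were searched on both strands, namely TATAAA of the TATA box, CCAAT of the CCAAT box, GGGCGG of the GC box, GTAAACA of the forkhead core and TGACNNNGC of the antioxidant response element core. No window held TATAAA, which 13.6% of the 32851 windows of this length hold. CCAAT was found in 3 windows (Slc22a6, Slc13a4 and Slc7a11), against 37.4% of all windows, and GGGCGG in 3 (Slc6a13, Slc6a20a and Slc13a4), against 35.7%. GTAAACA was found in the window of Slc7a11 alone (3.65% of all) and TGACNNNGC in that of Slc6a13 alone (12.4% of all). No motif was found in more than 3 of the 9 windows. These are matches of letters and not sites of binding.

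Sex was not part of the choice of these genes, so it was tested. None of the 10 carriers differed between females and males past the thresholds (edgeR quasi-likelihood test with sex and genotype, 12 mice), where 1.35% of all genes tested did in either direction. At an unadjusted p under 0.05 there were also 0 (4.72% of all genes), and limma-voom and DESeq2 likewise called 0. The female minus male log2 difference was above 0 for 9 of the 10, from -0.18 for Slc7a11 to 1.08 for Slc13a4. Slc13a4 had the lowest p, 0.0876 (adjusted over all genes 0.868, edgeR), with a 95% interval of the difference from -0.18 to 2.34. Females averaged 22.1 ± 16.0 CPM and males 12.8 ± 11.5 CPM of it (SD over 6 mice). For Slc6a12 the difference was 0.90 with an interval from -0.24 to 2.03, and for Slc22a6 it was 0.76 with an interval from -0.24 to 1.76. The intervals of the steadier genes were narrower, from -0.14 to 0.45 for Slc22a8 and from -0.71 to 0.34 for Slc7a11. Differences of 1.5-fold between the sexes thus lay within the intervals of all genes but Slc22a8. Leaving out female WT replicate 3 put 3 genes (Slc13a4, Slc6a12 and Slc6a20a) past the thresholds as higher in females (0.881% of all genes in the fit of all mice), leaving out female Nell-1+/6R replicate 2 put Slc13a4 and Slc6a12 there, and leaving out male WT replicate 2 or 3 put 1 there, Slc6a12 and Slc13a4 respectively.

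The genotype by sex interaction asked whether the genotype difference was of another size in females than in males. None of the 10 was past the thresholds in edgeR, limma-voom or DESeq2, where edgeR put 2.16% of all genes tested past them in either direction, and 0 had an unadjusted p under 0.05, which 3.09% of all genes had. The female minus male difference of the log2 fold changes ran from -0.38 for Slc7a11 to 1.94 for Slc13a4. For Slc13a4 the unadjusted p was 0.0967 and the adjusted p 0.987 (edgeR), and its interval ran from -0.40 to 4.27. For Slc6a20a, with -0.45 in females and -1.24 in males, the interval was -0.59 to 2.18, and for Slc22a8 it was -0.50 to 0.73. Single mice set this result too: without female Nell-1+/6R replicate 2 or female WT replicate 1, Slc13a4 was past the thresholds, as was Slc7a11 without female Nell-1+/6R replicate 3.

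**Figure D3:**
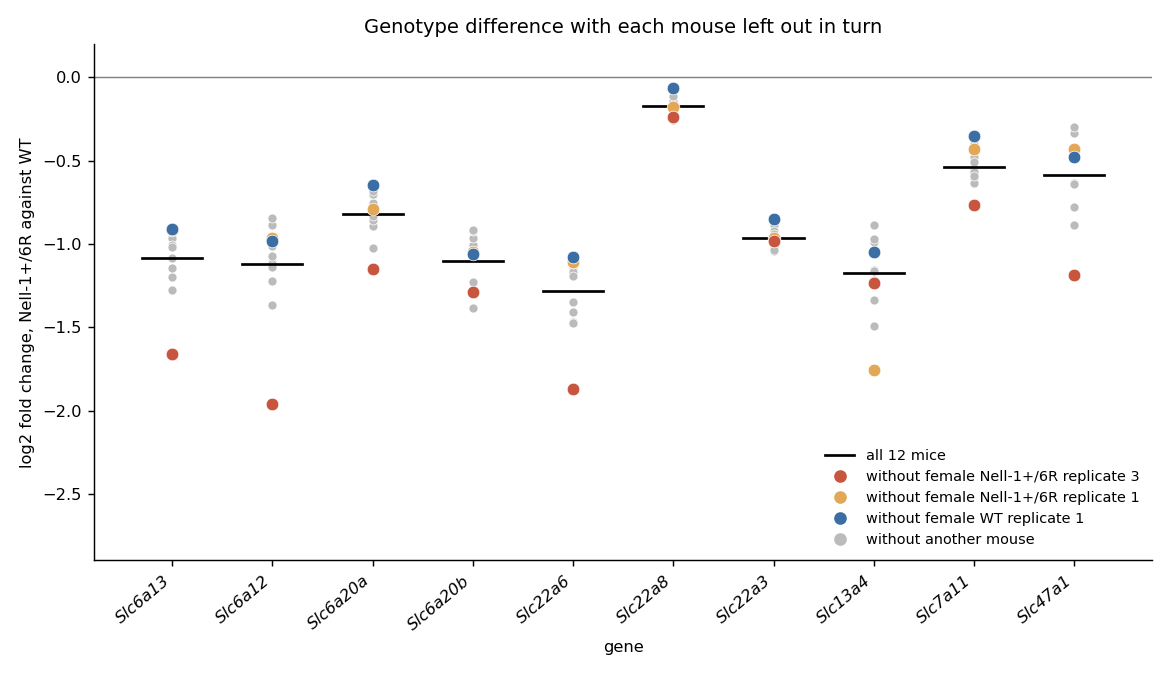
Log2 fold change of each carrier, Nell-1+/6R against WT (vertical axis), with all 12 mice (bars) and without 1 mouse at a time (points). No value crosses 0; leaving out female Nell-1+/6R replicate 3 moves Slc6a12 from -1.12 to -1.96, and leaving out female Nell-1+/6R replicate 1 moves Slc13a4 from -1.18 to -1.76.

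The size of the genotype values depended on single mice, while their sign did not. Without female Nell-1+/6R replicate 3 the log2 fold change was -1.66 for Slc6a13, -1.96 for Slc6a12, -1.15 for Slc6a20a, -1.87 for Slc22a6 and -1.18 for Slc47a1, and 8 genes were past the thresholds, which 1.07% of all genes passed as lower in the fit of all mice. Without female WT replicate 1, the highest WT mouse in every carrier but Slc6a20b, 2 genes were past them, Slc6a20b and Slc22a3. Slc6a13, Slc22a6 and Slc6a20a were then no longer past them, with log2 fold changes of -0.91, -1.08 and -0.65. Over the fits without 1 mouse the log2 fold change of Slc22a3 moved between -1.04 and -0.85 and that of Slc22a8 between -0.25 and -0.06.

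The carriers varied together from mouse to mouse. After the mean of each of the 4 groups of sex and genotype was removed from log2 CPM, the 45 pairs among the 10 genes had a median Pearson r of 0.756 over the 12 mice, and 44 were above 0. The values of a pair come from the same libraries and share their depth and scaling, and the r is given as a description. The highest r, 0.948, was between Slc6a20a and Slc22a8, and that between Slc6a13 and Slc22a6 was 0.94. Slc6a20b stood apart, with r from -0.15 to 0.37 with the other 9 genes, its tandem relative included. Slc13a4 came between, with r from 0.20 to 0.68.

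Among 14378 other genes with a mean of at least 1 CPM, the 3 most like each carrier in these deviations were also found. For Slc6a13 they were Cbln1 (r = 0.977), Kcnt1 and Prg4, and for Slc6a12 Aspg (r = 0.979), Fmod and Lama1. For Slc6a20a they were Gm9958 (r = 0.976), Fmod and Mrc2, and for Slc6a20b Ccsap (r = 0.961), Arsj and Cenpq. Fmod and Lama1 encode matrix proteins, fibromodulin and a laminin chain. Most genes of these lists are not described here, and no cell type is read from them. For Slc22a6 they were Sowahb (r = 0.985), Pax6 and Kcnip1, for Slc22a8 Atp8b1 (r = 0.957), Sp100 and Gm9958, and for Slc22a3 Foxd1 (r = 0.963), Tmem266 and Ece1. For Slc13a4 they were Coch (r = 0.959), Col18a1 and Igf2, of which Col18a1 encodes a basement membrane collagen and Igf2 a growth factor made by leptomeningeal cells. Slc7a11 was most like Lrrtm3 (r = 0.949), Cntn6 and Gbp7, and Slc47a1 most like Kcnip1 (r = 0.952), Hs3st5 and Tgm4. The best of so many genes over 12 mice has a high r also where nothing is shared.

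**Figure D4:**
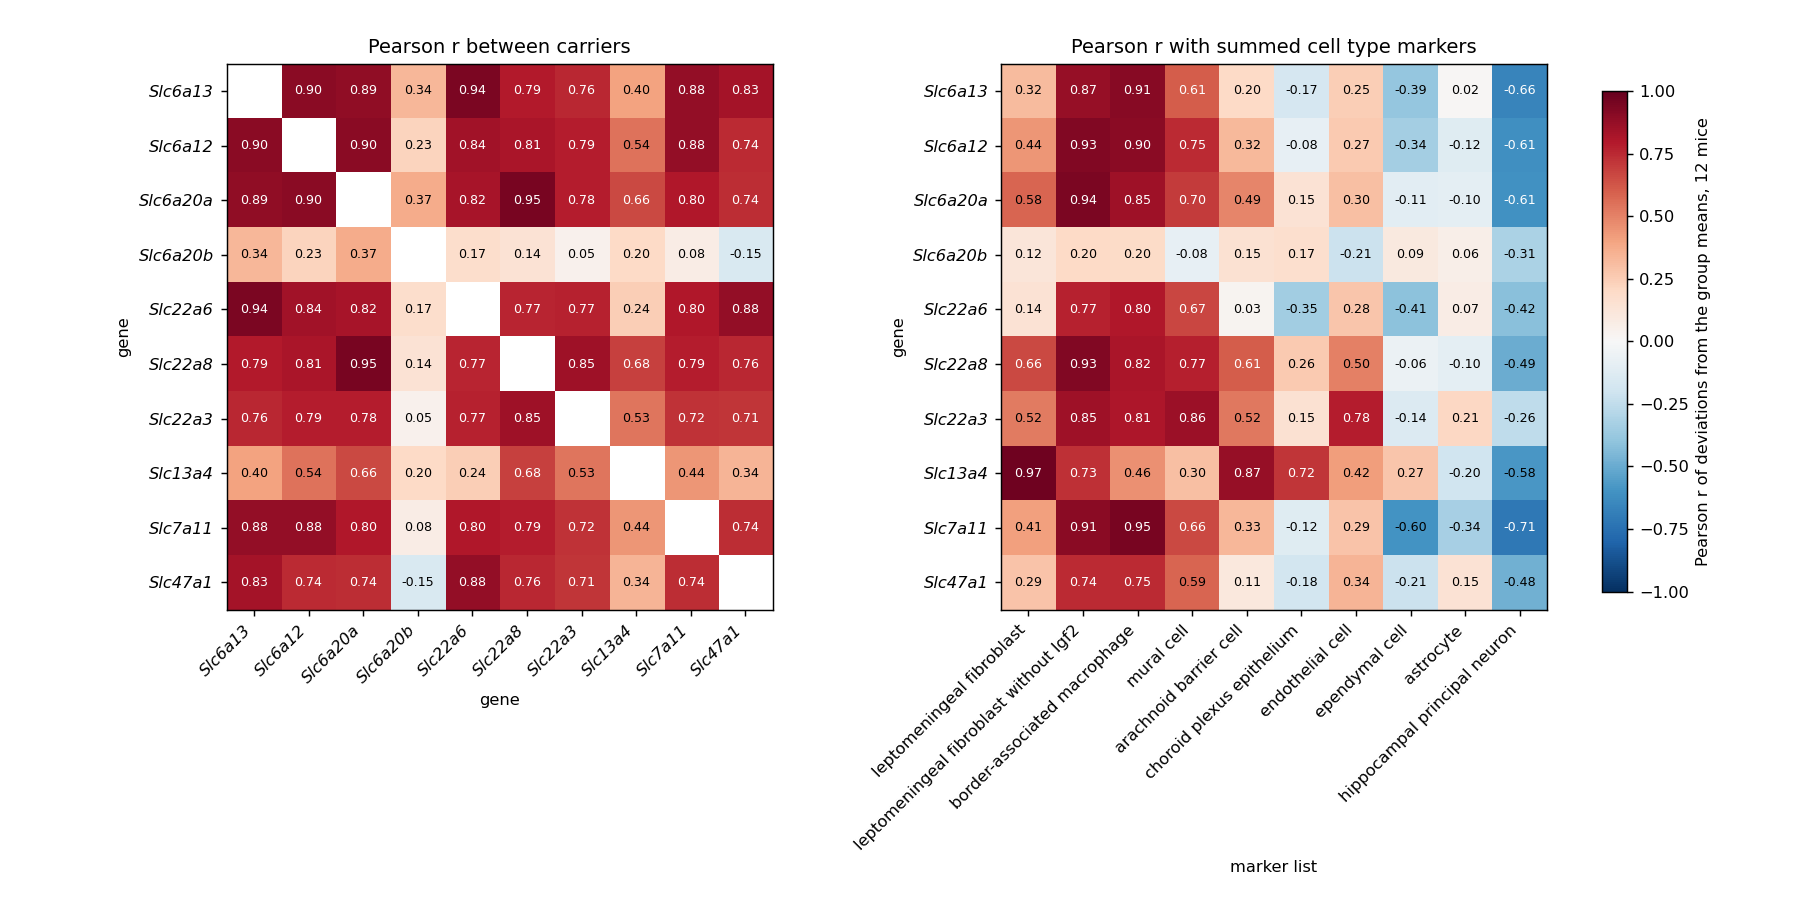
Pearson r of the deviations from the group means over 12 mice, between the carriers (left) and between each carrier and the summed markers of 9 cell types (right), from blue (-1) to red (1). Slc6a20b is pale in both panels, Slc13a4 is reddest with leptomeningeal fibroblast and arachnoid barrier cell markers, and most others with border-associated macrophage markers and with the leptomeningeal list without Igf2.

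The label of these genes was checked against markers of the cells they are known from. The marker lists here and below were chosen with earlier results of these data known, so nothing is read from their genotype counts. The 10 leptomeningeal fibroblast markers were detected in every mouse, and their sum ranged from 131 to 388 CPM in WT (median 230) and from 81.9 to 392 CPM in Nell-1+/6R (median 113). All 10 had a lower fitted level in Nell-1+/6R, 5 of them (Lum, Col1a1, Col1a2, Col3a1 and Aldh1a2) past the thresholds, where 50.3% of all genes were lower and 1.07% were past the thresholds as lower. Igf2 made up 30.4% to 81.7% of the sum, and without it the sum was 77.0 to 165 CPM in WT and 44.2 to 110 CPM in Nell-1+/6R. Slc13a4 tracked the leptomeningeal sum with r = 0.974 (Spearman's rho = 0.979, and r = 0.951 without the 2 mice farthest from the median). Without Igf2 in the sum its r was 0.73 (Spearman's rho = 0.587, and r = 0.599 without the 2 farthest mice). The other 9 carriers had a higher r with the shorter sum. Slc6a12, Slc6a20a, Slc22a8 and Slc7a11 had an r of 0.44, 0.58, 0.66 and 0.41 with the whole sum and of 0.93, 0.94, 0.93 and 0.91 with the sum without Igf2. For Slc6a13 the r was 0.32 with the whole sum and 0.87 without Igf2, and for Slc22a6 it was 0.14 and 0.77. The 5 arachnoid barrier markers summed to only 7.10 to 18.6 CPM in WT and 6.03 to 16.1 CPM in Nell-1+/6R, with Dpep1 at 0 in 3 mice and Cdh1 in 1. The r with this sum ran from 0.03 for Slc22a6 to 0.87 for Slc13a4. The 7 endothelial markers summed to 113 to 140 CPM in WT and 110 to 135 CPM in Nell-1+/6R. Of these 6 were lower and 0 past the thresholds (50.3% and 1.07% of all genes). The r with the endothelial sum ran from -0.21 for Slc6a20b to 0.78 for Slc22a3. Without the 2 farthest mice it ran from -0.27 to 0.61 for the same 2 genes.

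Border-associated macrophages, which live in the meninges and around vessels, were scarce, but their markers varied with most of the carriers from mouse to mouse. The 7 markers summed to 6.35 to 13.3 CPM in WT (median 8.86) and 3.52 to 9.63 CPM in Nell-1+/6R (median 4.73). All 7 had a lower fitted level in Nell-1+/6R, 5 of them past the thresholds (50.3% and 1.07% of all genes), and Ms4a7 was at 0 in 1 mouse. The highest Nell-1+/6R mouse in this sum was female replicate 3, the mouse with the highest Nell-1+/6R level of Slc6a13, Slc6a12, Slc6a20a, Slc22a6, Slc22a8, Slc7a11 and Slc47a1. The r with this sum was 0.949 for Slc7a11, 0.912 for Slc6a13 and 0.90 for Slc6a12, and 0.82 and 0.96 without the 2 farthest mice for Slc6a13 and Slc7a11. It was 0.46 for Slc13a4 and 0.20 for Slc6a20b, and 0.31 and -0.22 without those mice. Slc22a3 had its highest r, 0.856, with the sum of 9 mural cell markers, and nearly the same, 0.847, with the leptomeningeal sum without Igf2. Without the 2 mice farthest in each list these were 0.888 and 0.917, and Spearman's rho was 0.881 and 0.902. The mural sum was 162 to 259 CPM in WT and 145 to 193 CPM in Nell-1+/6R. Of the mural markers 8 had a lower fitted level (50.3% of all genes). Past the thresholds as lower, beside 1.07% of all genes, were 3 (Acta2, Myh11 and Tagln, of smooth muscle). The other mural markers had log2 fold changes from -0.27 for Vtn to 0.08 for Rgs5. Slc6a20b had no r above 0.20 with any list over the 12 mice, and without the 2 farthest mice its highest was 0.38, with choroid plexus markers. The markers of hippocampal principal neurons had negative r with all 10 carriers, from -0.71 for Slc7a11 to -0.26 for Slc22a3, but this rests on the 2 mice farthest from the median, without which the r ran from -0.37 for Slc13a4 to 0.07 for Slc6a12 and was above 0 for Slc6a12, Slc22a6 and Slc22a3. What part the amount of leptomeninges and of vessels in each sample had in the carriers' levels was not tested.

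Choroid plexus markers set a few mice apart. The 10 markers summed to 5202 CPM in female Nell-1+/6R replicate 1, 4670 CPM in male WT replicate 3, 2118 CPM in female WT replicate 1 and 800 CPM in female WT replicate 2, and to between 46.6 and 135 CPM in the other 8. Ttr, which encodes the abundant transthyretin of this epithelium, was detected in every mouse. All 10 choroid plexus markers had a lower fitted level in Nell-1+/6R, as 50.3% of all genes did. Past the thresholds were 0, where 1.07% of all genes were as lower. Their log2 fold changes had a median of -0.96, and the summed level had a WT median of 468 CPM and a Nell-1+/6R median of 69.4 CPM. Slc13a4 followed this sum with r = 0.72 and the other carriers with r from -0.35 to 0.26. That contrast rests in part on the 2 mice farthest from the median, since without them the r was 0.57 for Slc13a4 and from 0.0985 to 0.48 for the other carriers. With the 2 highest mice left out, which was chosen after seeing the data, the log2 fold change of Slc13a4 was -1.49 with a standard error of 0.51 and that of Slc6a13 was -0.98 with a standard error of 0.43. Slc6a13, Slc22a6, Slc22a3 and Slc13a4 were then past the thresholds, which 1.07% of all genes passed as lower in the fit of all mice. Slc6a20a and Slc6a20b were not, with log2 fold changes of -0.81 and -1.02 and standard errors of 0.38 and 0.51.

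**Figure D5:**
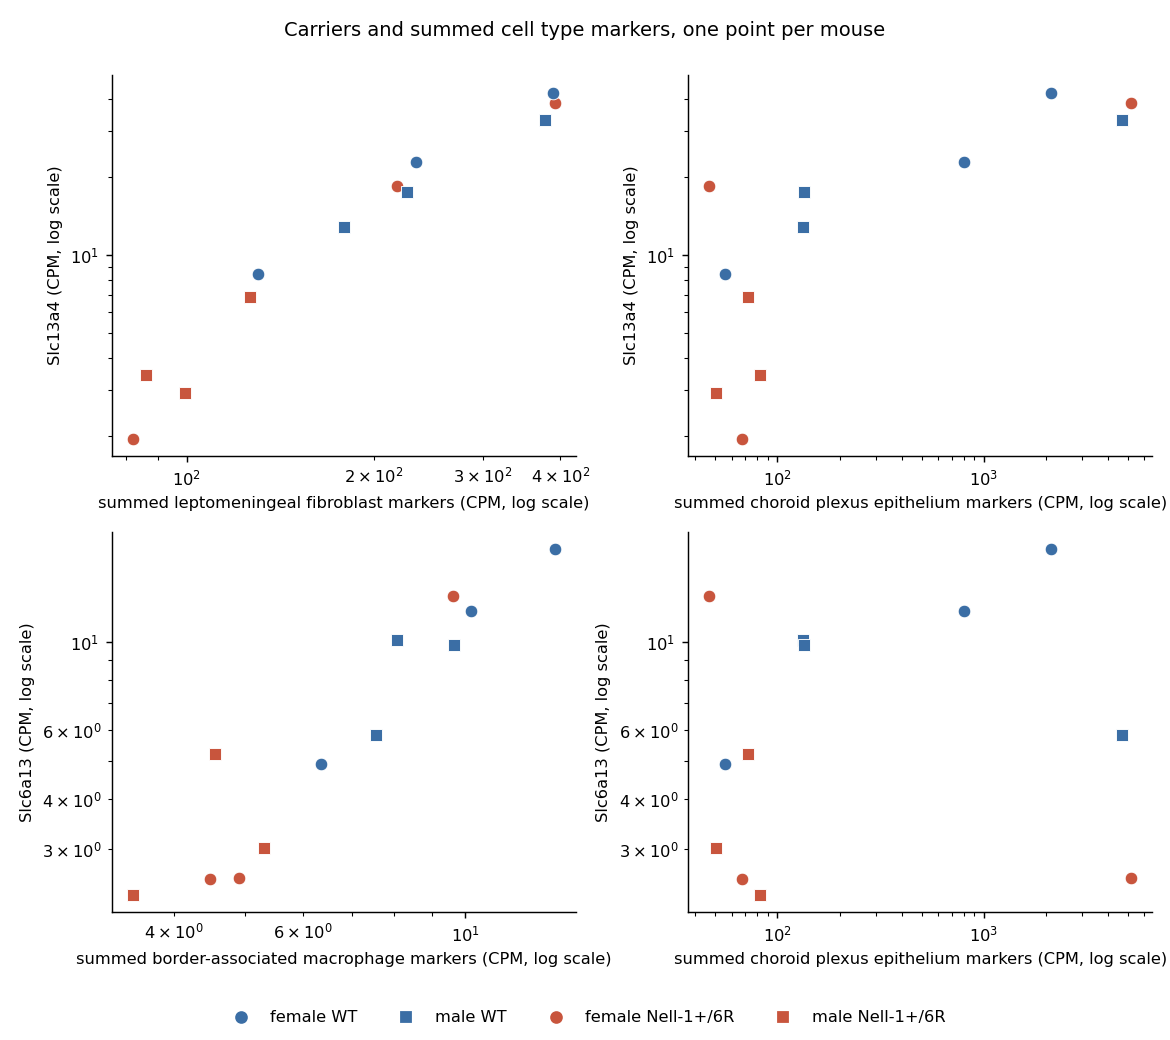
Levels of Slc13a4 (top) and Slc6a13 (bottom) against summed marker levels in the same 12 mice, all in CPM on log axes. Slc13a4 rises with the leptomeningeal sum, Igf2 included, in both genotypes and Slc6a13 with the border-associated macrophage sum. Female Nell-1+/6R replicate 1, at 5202 CPM of choroid plexus markers, is high in Slc13a4 (38.6 CPM) and low in Slc6a13 (2.53 CPM).

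Other carriers were centred near 0. The remaining genes of the same families (symbols beginning with Slc6a, Slc22a, Slc13a, Slc7a or Slc47a) number 62, of which 37 passed the filter, and 1 of these, Slc7a6os, is named for lying opposite Slc7a6 and is no carrier. None was past the thresholds in edgeR, limma-voom or DESeq2, against 1.46% of all genes tested in either direction, and 20 of the 37 were below 0, with a median log2 fold change of -0.01. At an unadjusted p under 0.05 there was 1 of the 37, beside 3.26% of all genes, the sodium-dicarboxylate carrier Slc13a3, named after its values were seen. Its WT mean was 27.9 ± 8.85 CPM and its Nell-1+/6R mean 20.5 ± 5.88 CPM (SD over 6 mice), with a log2 fold change of -0.45 (adjusted p = 1.00, edgeR). The lowest values were in scarce genes, also named after their values were seen. The organic cation carrier Slc22a2 had a log2 fold change of -1.25 with a standard error of 0.71, the dopamine carrier Slc6a3 -0.74 with 0.43, and Slc22a21 -0.72 with 0.43. Slc22a2 was past the thresholds as lower in 3 of the fits that left out a mouse (replicate 3 of the WT females, of the WT males or of the Nell-1+/6R females). So was Slc22a21 without male Nell-1+/6R replicate 2, and Slc22a18 without female Nell-1+/6R replicate 1. The GABA carrier of astrocytes, Slc6a11 (GAT3), had a log2 fold change of 0.01, with 199 ± 14.4 CPM in WT. The taurine carrier Slc6a6 had -0.04 and the creatine carrier Slc6a8 0.03. Slc22a17, the most abundant of the list at 787 ± 56.2 CPM in WT, had 0.04, Slc6a17 had 0.07, Slc7a14 had 0.01 and Slc7a8 had 0.04. The GABA carriers among the 10, Slc6a13 and Slc6a12, had -1.08 and -1.12. Since the 10 were chosen on this contrast and the others are what the choice left, nothing is read from the gap between them.

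The 30 carriers and pumps of the brain barriers were listed from the blood-brain barrier, the choroid plexus and the efflux pumps, and all passed the filter. None was past the thresholds in edgeR, limma-voom or DESeq2, where 1.46% of all genes were past them, and 25 of 30 were below 0, with a median of -0.07, where 50.3% of all genes were below 0. Of the 11 choroid plexus carriers among them 10 were below 0, with a median of -0.22 and the lowest value, -1.19 with a standard error of 1.32, in the bicarbonate carrier Slc4a5, which was named after its values were seen. At an unadjusted p under 0.05, where 3.26% of all genes were, there were 2, the lipid carrier Mfsd2a at 0.26 and the efflux pump Abcc4 at -0.21, both named after their values were seen and with an adjusted p of 1.00 (edgeR). The glucose carrier Slc2a1, which marks the endothelial barrier, averaged 77.7 ± 9.87 CPM (WT) and 74.2 ± 9.79 CPM (Nell-1+/6R, SD over 6 mice), with a log2 fold change of -0.06 and a standard error of 0.10. The large neutral amino acid carrier Slc7a5 and its partner Slc3a2 had 0.05 and -0.03, the glutamine carrier Slc38a3 -0.05, the ascorbate carrier Slc23a2 -0.13 and the pump Abcc5 -0.05. Slc4a2, an anion exchanger of the choroid plexus, had -0.22 with a standard error of 0.35. Without female Nell-1+/6R replicate 1, the mouse highest in choroid plexus markers, 4 genes of this list (Slc16a8, Slc4a2, Slc4a5 and Slco1a5) were past the thresholds as lower.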

How the data were processed

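The authors aligned single reads of hippocampal RNA from 12 mice with HISAT2 (2.1.0, per the submitters' processing notes) to mm10, counted them with featureCounts (2.0.1 in those notes), and deposited raw counts per Entrez gene ID. The study's methods give another version of featureCounts, and no source used here gives the strand setting. All columns were matched to mice by their short names, with 0 left over. The WT titles contain "Het", but the genotype field says WT, and Nell1 separates the groups that way. Of 27179 IDs, 25275 were named through RefSeq GRCm38 and 18 through GENCODE M21, and 1886 have no name.

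A gene was tested if 2 or more mice reached a CPM of 0.2 (17937 genes), with edgeR 4.0.16 in R 4.3.3 (TMM factors, quasi-likelihood test, sex and genotype in the model, Benjamini-Hochberg adjustment over all genes). The p-values measure the spread between mice. Past the thresholds means a fold change above 1.5 with an unadjusted p under 0.05, as in the study's methods. Those methods name limma-voom as the tool and also quasi-likelihood F-tests. Effects in each sex and the interaction came from a model of 4 groups, standard errors are those implied by the test, and 95% intervals use the t distribution. Correlations used log2 CPM with a prior count of 2. The fits were tested on simulated data, and tables were made with Python 3.11.15.

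The 10 genes, the carrier lists, the markers and the motifs were chosen with earlier results of these data known. From each carrier list, genes past the thresholds and the 8 most abundant with at least 20 CPM were named, and for each of the 10 genes the 3 most similar. Some genes that this rule names are not reported here. Slc13a3, Slc6a3, Slc4a5, Mfsd2a, Abcc4 and genes called only with mice left out were named after their values were seen. Alternatives were other scaling factors, filters and tools (limma-voom 3.58.1, DESeq2 1.42.0), a model without sex, a block by replicate number, and leaving out each mouse.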

Additional observations from a re-analysis of the deposited data

Results flagged for a closer look

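Dixon's test of the highest or lowest of the 6 mice of a genotype was run on 38 groups of values (the 10 carriers and 9 summed marker lists, in each genotype) and singled out 8. Chance singles out about 1 in 20 independent groups, but these groups are not independent, since they are the same 12 mice over genes that vary together, and 5 of the 8 come from 1 mouse. Of the carriers, 4 did so, each through female Nell-1+/6R replicate 3 among the Nell-1+/6R mice. Slc6a13, the GABA and taurine carrier, had 13.02 CPM in this mouse, where the next Nell-1+/6R mouse had 5.21 CPM. Slc6a12, the betaine carrier, had 3.82 CPM against 0.808 CPM in the next mouse. The proline carrier Slc6a20a had 10.5 CPM against 5.14 CPM, and the organic anion carrier Slc22a6 had 8.35 CPM against 3.38 CPM. The same mouse was set apart in the summed border-associated macrophage markers, with 9.63 CPM against 5.31 CPM.

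Female Nell-1+/6R replicate 1 was set apart in the summed choroid plexus markers, with 5202 CPM against 82.4 CPM in the next Nell-1+/6R mouse, and in the arachnoid barrier markers, with 16.1 CPM against 8.95 CPM. Of the WT mice, female replicate 2 had the highest sum of astrocyte markers, 2054 CPM against 1832 CPM.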

How the results depend on the processing

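In every setting run, all member log2 fold changes kept their sign. The carriers past the thresholds between the genotypes were 5 in the main fit, beside 1.07% of all genes as lower. They became 3 when 6 or more mice had to reach a CPM of 1, since Slc22a3 and Slc6a20b are not tested there. With limma-voom they were 8 (adding Slc6a12, Slc13a4 and Slc7a11), and at an adjusted p under 0.05 they were 0 (0.0390% of all genes). Both shares are of the main fit, and nothing is read from these counts, since the choice used the contrast. Leaving out each mouse gave 2 (without female WT replicate 1) to 8 (without female Nell-1+/6R replicate 3 or female WT replicate 3), and 0 to 3 for sex, 0 to 1 for the interaction, 0 to 1 for the other family carriers and 0 to 4 for the barrier carriers and pumps. Without the 2 mice highest in choroid plexus markers, the barrier list had 1 (Slc4a5). At an unadjusted p under 0.05 with no fold threshold, the other family carriers had 1 and the barrier list 2. Without female Nell-1+/6R replicate 3, the log2 fold change moved by more than its standard error in Slc6a13 (-1.66), Slc6a12 (-1.96), Slc6a20a (-1.15), Slc22a6 (-1.87) and Slc47a1 (-1.18). The cause of these shifts was not tested. The median r between carriers was 0.701 to 0.808 with a mouse left out, 0.730 with a prior count of 0.5 and 0.748 as Spearman's rho.

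The sample labels give no litter, so pairing by litter could be neither tested nor put in the model. Deviations of same-numbered WT and Nell-1+/6R mice of a sex had r from -0.20 to 0.24, and 2 of 6 mice were most like their own number. With the replicate number as a block, 5 carriers were past the thresholds between the genotypes, 0 for sex and 0 for the interaction, as without it. Depth limits Slc6a20b (1 to 11 counts in a mouse) and Slc22a3 (5 to 23) most.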
